A study of Homo sapiens with 8 samples.

Results

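The 32 genes described here belong to the amino acid response directed by the transcription factor ATF4, and they were taken from a list of gene symbols out of 22653 entries counted in the series. The list holds 6 genes of serine and one-carbon synthesis, 6 other enzymes, 8 transcription factors, 8 genes of feedback and growth control, the tRNA exporter XPOT, and 3 genes for secreted proteins or a receptor. All 32 were matched by Entrez gene number, and 27 had enough counts to be tested. The cells were U937, a human monocytic line, in which SLC19A1, the reduced folate carrier, had been knocked out in all groups. They carried SLC7A1 or SLC7A2, both cationic amino acid transporters that import arginine and lysine, as a Flag-tagged copy under a doxycycline-inducible (tet) promoter. The 4 groups were tet-SLC7A1 cells without dox, tet-SLC7A1 cells given 1 µg/mL doxycycline for 24 h, tet-SLC7A2 cells without dox, and tet-SLC7A2 cells given the same dose for the same time, with 2 libraries in each. Each transporter was studied in 1 line, and no cells without a construct were given dox, so effects of the drug and of the transporter cannot be told apart. The labels do not say whether a line is 1 clone, or whether the replicates came from separate cultures, so a p-value reflects no more than the spread among these libraries, and that spread may be technical.

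When amino acids run short, uncharged tRNA activates the kinase GCN2 (EIF2AK4), which phosphorylates the initiation factor eIF2. General translation then slows while ATF4 mRNA is translated more efficiently, and ATF4, paired with C/EBP family proteins, switches on genes for amino acid synthesis, uptake and tRNA charging. Other eIF2 kinases feed into the same factor, and some targets, such as PPP1R15A and TRIB3, act back on the pathway. Because ATF4 is controlled largely through translation, its mRNA level is a limited readout of its activity.

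ATF4 and C/EBP partners bind a composite element whose core was searched here as TGATGNAA on both strands. The search covered the RefSeq promoters in GRCh38.p14, each from 250 bases before to 50 bases after an annotated transcription start. A gene can have several such starts, and 25 of the 32 genes had an entry, with 39 promoters in all. A match was present in 5 of these 39 promoters, in 5 genes, against 3.62% of the 35116 promoters in the table and 4.46% of its 27305 genes. These 5 windows are shown because they hold every match found among the 32 genes. Each sequence runs 5′ to 3′ on the strand of its gene, and the capitals mark the match.
ASNS, chr7:97872454-97872491, minus strand: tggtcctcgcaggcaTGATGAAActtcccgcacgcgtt
ATF3, chr1:212565201-212565238, plus strand: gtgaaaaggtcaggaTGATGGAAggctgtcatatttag
CEBPG, chr19:33374056-33374093, plus strand: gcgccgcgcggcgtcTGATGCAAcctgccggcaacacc
CHAC1, chr15:40953247-40953284, plus strand: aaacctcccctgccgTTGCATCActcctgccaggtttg
JDP2, chr14:75427991-75428028, plus strand: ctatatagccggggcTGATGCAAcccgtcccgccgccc
CEBPG and JDP2 shared the same 8 letters, and CHAC1 held them on the opposite strand. Counted from the transcription start of its promoter entry, the match began 68 bases before it in ASNS, 191 in ATF3, 42 in CEBPG, 209 in CHAC1 and 16 in JDP2. In ASNS, CEBPG and JDP2 the match lay within the annotated span of the gene, so that start is not the outer end of the gene. None of the 3 serine and one-carbon genes with a promoter entry had these letters in the window. A match is a description of the letters and does not show binding.

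The libraries held 17309132 to 18441833 expected counts each. Levels of a gene across libraries are given as CPM, its count scaled to the size of the library, and 3 counts, taken as the floor, were 0.163 to 0.173 CPM. Both transporter construct entries were at 0 to 9.65 CPM without dox and high with it: Flag-tagged SLC7A1 had 845 and 367 CPM in replicates 1 and 2 of its line, and Flag-tagged SLC7A2 had 264 and 4947 CPM. A short Flag entry had 0.578 to 11.2 CPM with dox and is not used below. SLC19A1 still gave 120 to 163 CPM in the libraries of this knockout line. Of 10 myeloid markers, SPI1 (116 to 167 CPM), CD33 (67.7 to 92.4 CPM) and LYZ (149 to 268 CPM) were present in every library, while MPO was at 0.544 to 1.20 CPM and CSF1R was at 0 to 1.80 CPM. Both SLC7A2-line libraries numbered 2 stood apart on the first principal component (55.3 and 68.1, the other 6 from -52.7 to -3.67). Their myeloid markers summed to 1441 and 1214 CPM, against 2097 to 2949 CPM elsewhere. ELANE (394 and 269 CPM, against 653 to 1108) and AZU1 were lowest in these libraries, but LYZ was highest in the no dox library of the pair and PTPRC in the dox library. The no dox library of this pair had fibroblast markers summing to 60.7 CPM, against 3.07 to 9.12 CPM in the other 7.

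Levels differed widely among the members. Per length, as the deposited TPM (a length-scaled share of the library, given as medians over the 8 libraries), EIF4EBP1, which encodes a translation repressor, was highest at 1006 TPM. PHGDH, the entry enzyme of serine synthesis, followed at 611 TPM, ATF4 at 594 TPM and SHMT2, a mitochondrial serine-to-glycine enzyme, at 422 TPM. TRIB3 (118 TPM) and PSAT1 (109 TPM) came next, and at the low end of the tested genes stood CHAC1 (4.33 TPM) and ATF3 (1.55 TPM). The ranges of EIF4EBP1 (864 to 1244 TPM) and PHGDH (490 to 888 TPM) overlapped, as did those of PHGDH and ATF4 (465 to 802 TPM). Those of ATF4 and SHMT2 (387 to 500.1 TPM), and of TRIB3 and PSAT1, overlapped too. Because all genes were measured in the same libraries, overlapping ranges do not show the order within a library, which was not compared. The 5 genes that were not tested were at or near 0: ALDH1L2 had 0 to 1 count in every library, NUPR1 0 to 2, PYCR1 0 to 5, GDF15 0 to 6 and STC2 2 to 10. A response of these 5 was not detectable at these counts. For PYCR1, an enzyme of proline synthesis, whether its reads were assigned to another entry was not tested, so its low count is uncertain as a level.

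With dox the members lay slightly higher in both lines, by a median of 0.20 on the log2 scale, and PSAT1 of serine synthesis, ASNS of asparagine synthesis, JDP2, STK40 and SESN2 had the largest differences. The fitted value was above 0 in 26 of 27 tested members, from -0.01 for PPP1R15A to 0.47 for PSAT1, while the median of all 17503 tested entries was 0.01. The members' median moved with single libraries: it was 0.083 across both lines and -0.15 in the SLC7A1 line without the SLC7A1-line dox library numbered 1, and 0.36 and 0.56 without the one numbered 2. Without the no dox library of that line numbered 1 the values were 0.32 and 0.48, and without the one numbered 2 they were 0.12 and -0.075. Without the dox library numbered 1 ASNS had 0.13, SESN2 0.11, PCK2 0.11 and PHGDH 0.052 in place of 0.39, 0.36, 0.23 and 0.17. These fits did not pair libraries by number, so the same-numbered partner of the library left out stayed in. No member and no entry passed the edgeR quasi-likelihood test across both lines (percent called 0, adjusted p = 0.9999 for every member). At an unadjusted p under 0.05 it took in 3 members, PSAT1, JDP2 and STK40, all higher, beside 261 of all entries, or 1.49% (0.846% higher). If no entry differed, 875 entries would be expected at that level, so this test was conservative here. The absence of calls does not show the absence of a response. DESeq2 with the same design called 1 entry, or 0.00571%, and 0 members. In bulk RNA, a different number of cells of a kind and a different amount of RNA per cell cannot be told apart.

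Same-numbered libraries of a line varied together, so each dox library was also set against its own partner. All 4 pair differences were above 0 in 16 of the 27 members, beside 7.91% of all tested entries, and all 4 were below 0 in 0 members, beside 7.07%. Among entries with a mean of at least 1 CPM the shares were 7.91% and 7.28%. The members were chosen with earlier results of these data known, so these shares are a description and not a test. Another 8 members had 3 differences above 0. Branch by branch, all 4 differences were above 0 in 4 of 5 tested serine and one-carbon genes, 2 of 5 other enzymes, 6 of 7 transcription factors, 4 of 8 feedback genes, and neither XPOT nor VLDLR. The medians of the mean pair difference were 0.23, 0.23, 0.19 and 0.26 log2 in the 4 larger branches, so the branches lay within 0.1 of each other.

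**Figure D1:**
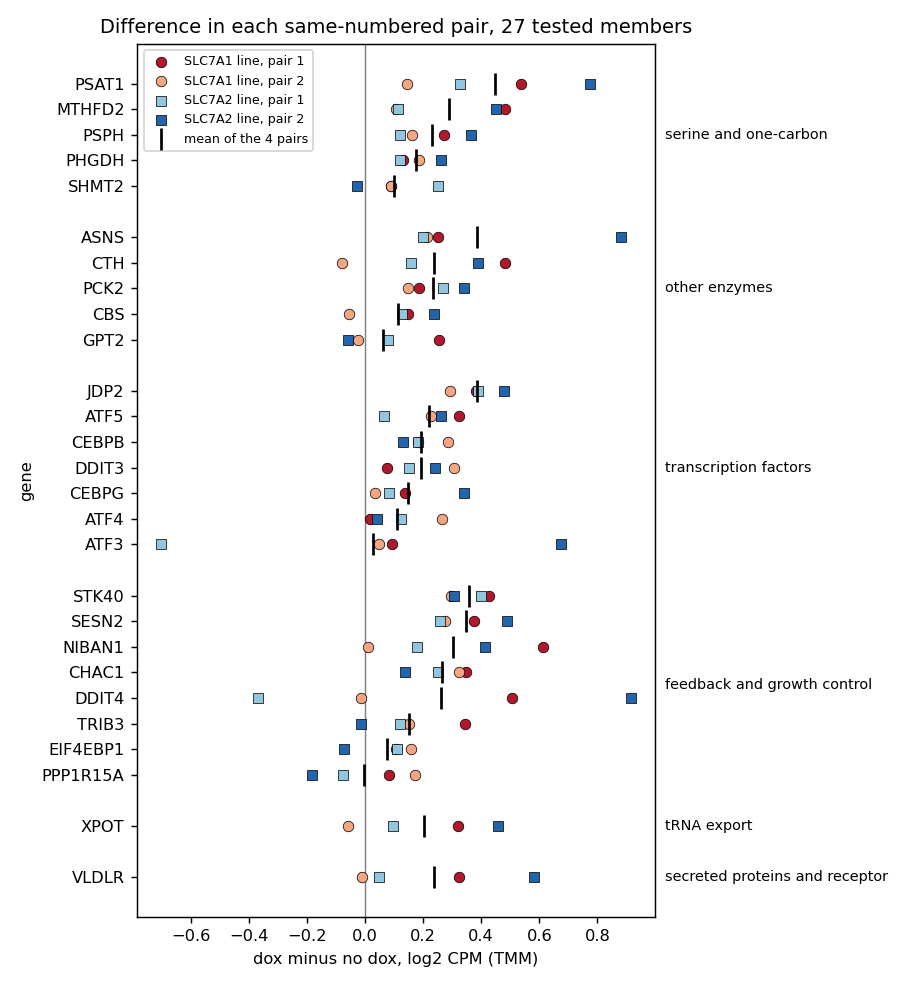
Difference between the dox and the no dox library of each same-numbered pair (x axis, log2 CPM, TMM-scaled) for the 27 tested members (y axis), grouped by branch. Points are single pairs and the black bar is the mean of 4; 16 members have all 4 points above 0, and ATF3 and DDIT4 have the widest spread.

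With the pair as a replicate block, edgeR still called 0 members and 3 entries (0.0171%), and 14 members had an unadjusted p under 0.05, all higher, beside 5.83% of entries (3.07% higher). DESeq2 with the same block called 106 entries (0.606%), 49 of them higher (0.28%), and among these were 6 members: JDP2, STK40, PSAT1, PCK2, SESN2 and PHGDH. In that fit 16 members had an unadjusted p under 0.05, all higher, beside 6.79% of entries (3.5% higher). These calls thus depend on the tool, and on single pairs: without the SLC7A1-line pair numbered 1, or without the SLC7A2-line pair numbered 1, DESeq2 with the block called 0 members. Without the SLC7A1-line pair numbered 2 it called 9, and without the SLC7A2-line pair numbered 2 it called 3 (PSAT1, JDP2 and STK40). Calls over all entries moved in the same direction, with the counts given in the last section. They were above 106 without the SLC7A1-line pair numbered 2 and below 106 without any of the other pairs. The block leaves 3 residual degrees of freedom.

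PSAT1 (Entrez 29968, chromosome 9, 78297125 to 78330093 in GRCh38.p14) encodes phosphoserine aminotransferase, the middle step of serine synthesis. In the SLC7A1 line its libraries held 184 and 166 CPM without dox (replicates 1 and 2) and 266 and 183 CPM with it. The SLC7A2 line had 153 and 173 CPM without and 192 and 296 CPM with dox. Both dox libraries lay above both no dox libraries in the SLC7A2 line, whereas in the SLC7A1 line the lower dox library was level with the higher no dox library. The pooled log2 fold change was 0.47 ± 0.17 (SE) in edgeR and 0.45 ± 0.10 in DESeq2 with the block (adjusted p = 0.00228; over 24 alternatives the adjusted p ran from 2.255e-06 to 1). In the SLC7A2 line alone, DESeq2 with the block called PSAT1 (0.55 ± 0.14, adjusted p = 0.0385), 1 of 26 entries called (0.149%) and the only member. Without the SLC7A2-line dox library numbered 2, the edgeR pooled value was 0.31.

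PHGDH (Entrez 26227), which feeds 3-phosphoglycerate into serine, was abundant. It had 1118 and 737 CPM without dox and 1223 and 837 CPM with it in the SLC7A1 line, and 804 and 625 CPM without dox and 874 and 748 CPM with it in the SLC7A2 line. The groups overlapped in both lines, and the 4 pair differences stayed between 0.12 and 0.26. DESeq2 with the block gave 0.17 ± 0.04 (adjusted p = 0.0294; 0.02942 to 1 over the 24 alternatives) and edgeR without it 0.17 ± 0.17. PSPH, the phosphatase that completes serine synthesis, was the 1 member with all 4 dox libraries above all 4 no dox libraries, beside 0.503% of entries, and was named after its values were seen. It had 38.9 and 36.0 CPM without dox and 47.0 and 40.2 CPM with it in the SLC7A1 line, and 36.8 and 39.7 CPM without dox and 40.0 and 51.2 CPM with it in the SLC7A2 line.

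MTHFD2, a mitochondrial folate enzyme that uses the one-carbon unit from serine, had 139 and 133 CPM without dox and 194 and 143 CPM with it in the SLC7A1 line. The SLC7A2 line had 122 and 154 CPM without and 132 and 211 CPM with dox. Its pair differences formed a high set, 0.48 and 0.45, and a low set, 0.11 and 0.11, 1 of each kind in each line. The edgeR pooled value was 0.31 ± 0.17, and 0.16 without the SLC7A2-line dox library numbered 2. SHMT2 had 3 pair differences between 0.09 and 0.25 and 1 of -0.03.

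Among the other enzymes, ASNS (Entrez 440, chromosome 7, 97851677 to 97928441), asparagine synthetase and a textbook ATF4 target, had 59.5 and 25.4 CPM without dox and 70.8 and 29.4 CPM with it in the SLC7A1 line. The SLC7A2 line had 26.3 and 21.1 CPM without and 30.2 and 38.9 CPM with dox. Its difference was 0.88 in the SLC7A2-line pair numbered 2 and 0.20 to 0.25 in the other 3. The pooled edgeR value was 0.39 ± 0.33, and 0.24 without both SLC7A2-line libraries numbered 2. PCK2, mitochondrial phosphoenolpyruvate carboxykinase, had smaller but even differences, from 0.15 to 0.34, and DESeq2 with the block called it at 0.23 ± 0.05 (adjusted p = 0.00466; 0.004658 to 1 over the 24 alternatives). It had 237 and 155 CPM without dox and 270 and 172 CPM with it in the SLC7A1 line, and 152 and 110 CPM without dox and 183 and 140 CPM with it in the SLC7A2 line. CTH and CBS, of cysteine synthesis, each had 3 differences above 0 and 1 below, and GPT2, an alanine aminotransferase, had 2 above and 2 below. CBS has a near-identical copy, CBSL, listed at 0 in all 8 libraries, so its count is uncertain.

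**Figure D2:**
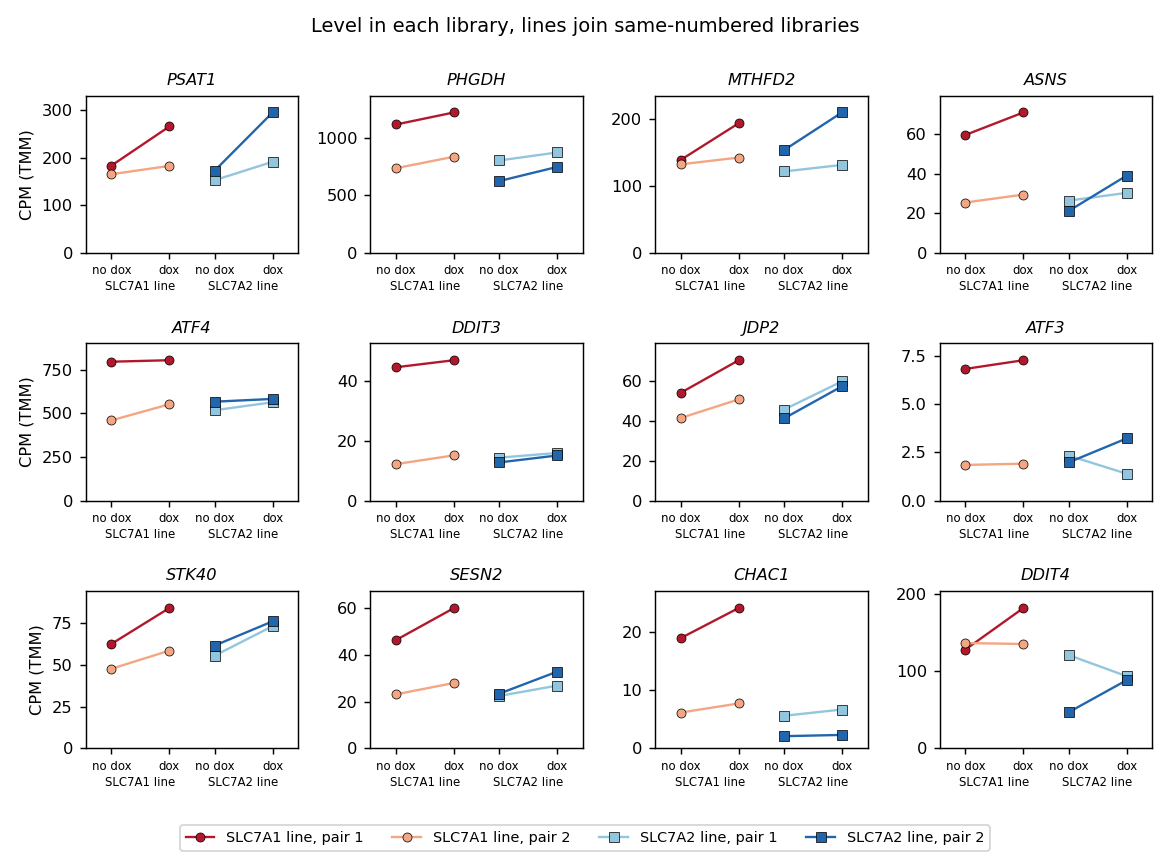
Level of 12 members in each library (y axis, CPM with TMM scaling, from 0) without and with dox (x axis) in the SLC7A1 line (circles) and the SLC7A2 line (squares). Lines join same-numbered libraries. All genes shown except ATF3 and DDIT4 slope upward in all 4 pairs, some only slightly. ATF3 and DDIT4 differ in direction between pairs.

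Among the transcription factors, ATF4 itself (Entrez 468) differed little. It had 796 and 460 CPM without dox and 805 and 552 CPM with it in the SLC7A1 line, and 518 and 567 CPM without dox and 564 and 583 CPM with it in the SLC7A2 line. Its pair differences were 0.02 to 0.27 and its pooled edgeR value 0.10 ± 0.18. DDIT3 (Entrez 1649), the factor CHOP, had 44.5 and 12.2 CPM without dox and 46.9 and 15.1 CPM with it in the SLC7A1 line, and 14.3 and 12.7 CPM without dox and 15.9 and 15.1 CPM with it in the SLC7A2 line. The library labelled replicate 1 was more than 3 times replicate 2 in both groups of the SLC7A1 line, so the pooled edgeR value of 0.16 ± 0.43 was far smaller than its error, although all 4 pair differences (0.07 to 0.31) were above 0.

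JDP2 (Entrez 122953, chromosome 14, 75426943 to 75474107), a repressor of the AP-1 and ATF family, had the largest mean difference of this branch. It had 54.1 and 41.4 CPM without dox and 70.4 and 50.8 CPM with it in the SLC7A1 line, and 45.6 and 41.2 CPM without dox and 59.8 and 57.3 CPM with it in the SLC7A2 line. The 4 differences were 0.38, 0.29, 0.39 and 0.48, and the groups were separate in the SLC7A2 line and overlapped in the SLC7A1 line. The log2 fold change was 0.39 ± 0.13 in edgeR and 0.39 ± 0.07 in DESeq2 with the block (adjusted p = 2.217e-05; 2.217e-05 to 1 over the 24 alternatives). ATF3, a stress-induced factor, was scarce, with 1.39 to 7.29 CPM, and its differences ran from -0.70 to 0.68, 1 at each end in the SLC7A2 line. Without both SLC7A2-line libraries numbered 2 its pooled edgeR value turned from 0.09 to -0.16. ATF5, CEBPB and CEBPG each had all 4 differences above 0, within 0.03 to 0.34.

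Among the feedback and growth control genes, STK40 (Entrez 83931, chromosome 1, 36339628 to 36385924), a kinase-like protein gene, and SESN2 (Entrez 83667), which encodes the leucine sensor that restrains mTORC1, had the largest mean differences. STK40 had 62.7 and 47.8 CPM without dox and 84.3 and 58.7 CPM with it in the SLC7A1 line, and 55.6 and 61.7 CPM without dox and 73.4 and 76.3 CPM with it in the SLC7A2 line. Its differences were 0.43, 0.30, 0.40 and 0.31, with 0.36 ± 0.14 in edgeR and 0.36 ± 0.06 in DESeq2 with the block (adjusted p = 2.217e-05; 2.217e-05 to 1 over the 24 alternatives). SESN2 had 46.4 and 23.2 CPM without dox and 60.2 and 28.0 CPM with it in the SLC7A1 line, and 22.5 and 23.4 CPM without dox and 26.9 and 32.9 CPM with it in the SLC7A2 line. DESeq2 with the block gave 0.35 ± 0.09 for SESN2 (adjusted p = 0.0146; 0.01461 to 1 over the 24 alternatives) and edgeR without it 0.36 ± 0.27. Both genes had separate groups in the SLC7A2 line and overlapping groups in the SLC7A1 line.

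CHAC1, a glutathione-degrading enzyme often used as an ATF4 readout, had 18.9 and 6.15 CPM without dox and 24.1 and 7.71 CPM with it in the SLC7A1 line. The SLC7A2 line had 5.59 and 2.08 CPM without and 6.67 and 2.304 CPM with dox. Every pair was higher with dox, by 0.14 to 0.35, but replicates of a group lay about a factor of 3 apart, and the pooled edgeR value was 0.29 ± 0.54. NIBAN1, a stress-induced protein gene, had 31.2 and 32.04 CPM without dox and 47.8 and 32.2 CPM with it in the SLC7A1 line, and 32.6 and 46.6 CPM without dox and 36.9 and 62.1 CPM with it in the SLC7A2 line. The pooled edgeR value of NIBAN1 was 0.33 ± 0.20, and 0.16 without the SLC7A2-line dox library numbered 2, and 1 of its 4 differences was only 0.01.

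DDIT4 (REDD1), an mTORC1 inhibitor, had the other wide range. It had 128 and 136 CPM without dox and 181 and 135 CPM with it in the SLC7A1 line, and 121 and 46.6 CPM without dox and 93.2 and 88.0 CPM with it in the SLC7A2 line. The differences were -0.37 and 0.92 in the SLC7A2 line. The 0.92 rested on 1 low no dox library, and without it the pooled edgeR value was -0.015 in place of 0.19. PPP1R15A (GADD34), which guides the phosphatase that reverses eIF2 phosphorylation, had differences of 0.08 and 0.17 in the SLC7A1 line and of -0.08 and -0.18 in the SLC7A2 line. TRIB3, a pseudokinase that restrains ATF4, and EIF4EBP1 each had 3 of 4 differences above 0. XPOT, the tRNA exporter, and VLDLR, a lipoprotein receptor, had differences of -0.06 to 0.46 and of -0.01 to 0.58.

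Line by line, the fitted value was above 0 in 27 of 27 members in the SLC7A1 line (median 0.21) and in 26 of 27 in the SLC7A2 line (median 0.22). edgeR called 0 members and 0 entries in either line. The construct entries were among those tested, so edgeR did not call them either. Yet Flag-tagged SLC7A1 had 0.264 and 0 CPM without dox and 845 and 367 CPM with it in its line. An unadjusted p under 0.05 was reached by 222 and 224 entries (1.27% and 1.28%), against 875 expected if no entry differed. At that level stood 0 members in the SLC7A1 line and 1, PSAT1, in the SLC7A2 line (0.754% of entries higher). DESeq2 without a block called 9 and 10 entries (0.0514% and 0.0571%) and 0 members. With the replicate block edgeR called 2 and 1 entries (0.0114% and 0.00571%) and 0 members, and 6 and 7 members, all higher, had an unadjusted p under 0.05, beside 4.25% and 3.54% of entries (2.21% and 1.98% higher). DESeq2 with the block called 45 entries (0.257%) and 0 members in the SLC7A1 line, and 26 entries with PSAT1 in the SLC7A2 line. Both dox libraries lay above both no dox libraries in 3 members of the SLC7A1 line (PSPH, MTHFD2 and NIBAN1; 11.1% of entries) and in 9 of the SLC7A2 line (10.3%), with PPP1R15A separate in the other direction there (9.75%). The difference between the lines' dox effects was called for 0 members and 0 entries by edgeR, with 222 entries (1.27%) and 0 members at an unadjusted p under 0.05, for 20 entries (0.114%) and 0 members by DESeq2, and for 21 (0.12%) and 0 by DESeq2 with the block. Over the members it had a median of 0.03, from -0.24 for PPP1R15A to 0.30 ± 0.69 (SE) for ASNS. With errors of this size the 2 transporters were not shown to act alike.

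The level of the construct in the dox library differed between pairs, and the members were set beside it. In rising order the construct stood at 264 CPM (SLC7A2 line, pair 1), 367 CPM (SLC7A1 line, pair 2), 845 CPM (SLC7A1 line, pair 1) and 4947 CPM (SLC7A2 line, pair 2). The members' median differences in that order were 0.12, 0.15, 0.27 and 0.34, while the median of all entries was 0.00 in each pair. Serine and one-carbon genes followed the same order, at 0.12, 0.14, 0.27 and 0.37. The other enzymes had 0.16, -0.02, 0.25 and 0.34, the transcription factors 0.12, 0.27, 0.14 and 0.26, and the feedback genes 0.15, 0.16, 0.36 and 0.22, none of which stood in that order throughout.

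Gene by gene the full order was held by a minority of the members. In 5 of 27 (PSPH, ASNS, ATF3, DDIT4 and SESN2) the 4 differences stood in the order of the construct. This was so in 5.05% of all entries (5.11% of those with a mean of at least 1 CPM). The difference was larger in the pair with more construct for 21 of 27 members in the SLC7A1 line (49.5% of entries), for 18 in the SLC7A2 line (50.2%), and in both lines for 16 (30.2%, or 30.5% at a mean of at least 1 CPM). The pair with the most construct was not the most uniform: 22 of its 27 differences were above 0, against 27 in the SLC7A1-line pair numbered 1. The SLC7A2-line pair numbered 2 is also the one that stood apart on the first principal component, and the part of its marker differences in these values was not tested. Without this pair the 3 remaining medians were 0.12, 0.15 and 0.27. The SLC7A1-line pair numbered 1 lay at the other end of that component (-52.7 without dox and -34.8 with it). In that line replicate 2 minus replicate 1 had a members' median of -0.47 already without dox. Within each line, construct level and replicate number cannot be told apart. With 4 pairs no correlation was computed, and the 2 constructs are different genes.

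**Figure D3:**
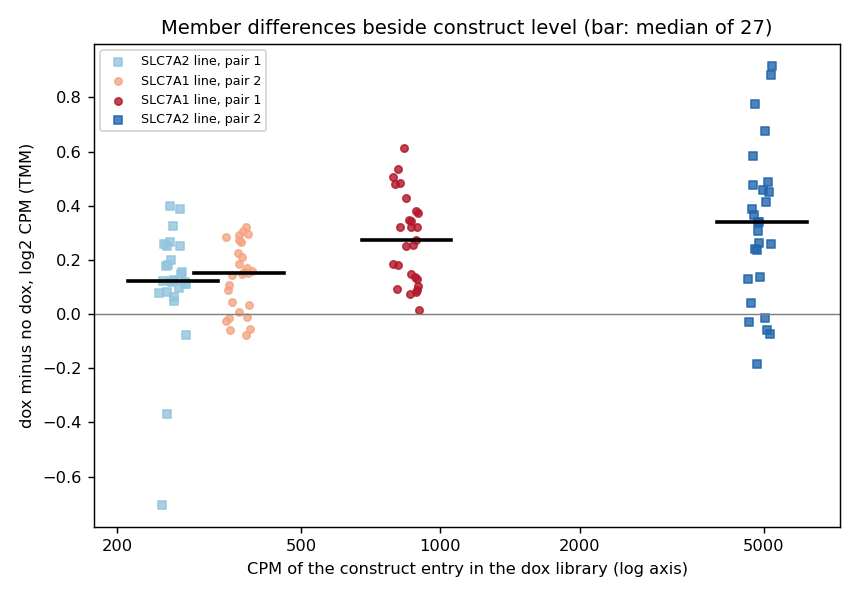
Dox minus no dox difference of each of the 27 tested members (y axis, log2 CPM, TMM-scaled) at the level of the construct entry in the dox library (x axis, CPM on a log axis), with points spread sideways within a pair. Black bars are the medians, 0.12, 0.15, 0.27 and 0.34 from left to right.

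The members differed more between replicates of the SLC7A1 line than with dox. Replicate 2 minus replicate 1 had a median over the members of -0.47 log2 without dox and -0.55 with dox, below 0 in 22 and 26 of 27 members, whereas the SLC7A2 line had -0.02 and 0.23. All entries had a median of -0.01 and 0.00 in the SLC7A1 line. The transcription factors were furthest apart, at -1.28 and -1.18, followed by the feedback genes at -0.66 and -0.81, and the serine and one-carbon genes were at -0.15 and -0.44. Replicate 1 was over 2-fold above replicate 2 in both groups of that line for 8 members (ASNS, ATF5, ATF3, DDIT3, CEBPB, PPP1R15A, SESN2 and CHAC1), beside 1.5% of entries (1.1% at a mean of at least 1 CPM). In DDIT3 the ratio was 3.63 without and 3.09 with dox, in ATF3 3.54 and 3.66, and in ATF5 3.13 and 3.35.

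Genes with large dox differences were found at the low end and in the middle part of this scale. PSAT1, JDP2 and STK40 had replicate ratios of 1.11 to 1.45, ASNS and SESN2 were over 2-fold apart, and PPP1R15A, at 2.52 and 2.37, had a mean dox difference of 0.00. Across the 27 members, which share the same 8 libraries, the mean dox difference and the replicate difference (2 minus 1) of the SLC7A1 line had a Pearson r of 0.16 and a Spearman rho of 0.15.

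**Figure D4:**
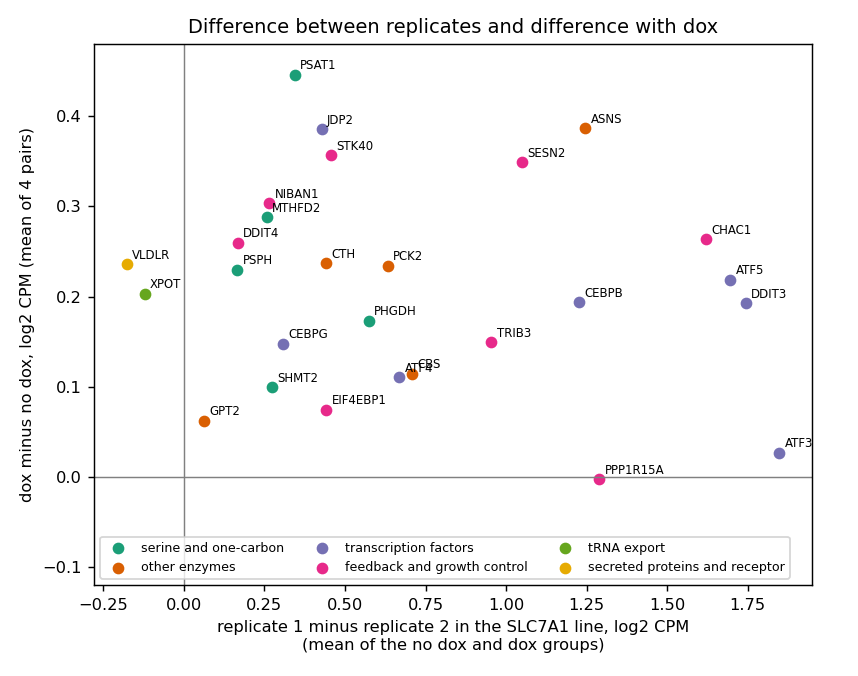
Mean dox difference over 4 pairs (y axis, log2 CPM) against replicate 1 minus replicate 2 in the SLC7A1 line (x axis, log2 CPM, mean of the no dox and dox groups) for the 27 tested members, coloured by branch. ATF3, DDIT3 and ATF5 lie far to the right, with mean dox differences of 0.03, 0.19 and 0.22. PSAT1, JDP2 and STK40 lie high near the left, and ASNS and SESN2 lie high further right.

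Other genes of the pathway were read from lists outside the 32, also chosen with earlier results of these data known. Of 12 cytosolic tRNA synthetases, which charge tRNA and are known ATF4 targets in part, 9 had all 4 pair differences above 0 (7.91% of all entries) and the pooled edgeR median was 0.17, with 0 called by edgeR. DESeq2 with the block called 5 of them higher (0.28% of all entries), led by MARS1 (0.31 ± 0.04, adjusted p = 8.538e-09) and AARS1 (0.25 ± 0.04, adjusted p = 3.447e-06), with GARS1 at 0.26, CARS1 at 0.27 and WARS1 at 0.20. With that block edgeR gave MARS1 an adjusted p of 0.702 and AARS1 one of 0.832. Of 8 tested amino acid transporters, 4 had all differences above 0 (pooled edgeR median 0.16) and 0 were called by either tool; SLC7A11, the cystine importer, had differences of 0.38, 0.09, 0.15 and 1.06, the last in the SLC7A2-line pair numbered 2, with a mean of 0.42, and 0.21 without that pair. SLC7A5, a large neutral amino acid transporter, had a mean of 0.17. The 6 eIF2 kinases and partners had a median of 0.00 and no gene with 4 differences above 0. Of 8 ER chaperones and related genes, which report the other branches of the unfolded protein response, 6 had all 4 differences below 0 (7.07% of all entries; median -0.14), and DESeq2 with the block called 1, HSP90B1 (-0.21 ± 0.05, adjusted p = 0.0264; 0.832 in edgeR with the block). The 7 mitochondrial stress genes had a median of 0.01, and HSPA9 and DELE1, at mean differences of 0.08 each, were the 2 with all 4 above 0.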

How the data were processed

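Poly(A) RNA of 8 libraries was measured, and each library has its own deposited file. Its count column is the authors' expected count, which need not be whole. The deposited TPM was used for levels between genes and 1 alternative, and the deposited FPKM was not used in any test. The build hg38 and the tools RSEM 1.3.1, Bowtie2 2.3.4.3, HISAT and DESeq2 1.4.5 appear in the submitters' processing notes without a role. Strand use was not given in the sources used here. Genes that overlap or lie antisense may share reads. Genes absent from a file count as 0.

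Expected counts were rounded. filterByExpr (minimum count 10, minimum total 15) kept 17503 entries, scaled by TMM and tested with the edgeR 4.0.16 quasi-likelihood test in R 4.3.3, with Benjamini-Hochberg adjustment over all entries and a threshold of 0.05. The pooled fit had line and dox as terms; the other comparisons used 1 fit of 4 group means. For edgeR the SE was computed from the fold change and F; DESeq2 1.42.0 gives its own. Pair differences are log2 CPM with a prior count of 2. CPM of constructs, of the SLC7A1 gene entry and of SLC19A1 are scaled to the library total. Without molecular identifiers the floors reflect counting error alone. The edgeR procedure was tested on simulated data with changes larger than those of the members and no differences between lines or replicate numbers. That test does not show whether differences of the members' size can be detected. Alternatives were the replicate block, DESeq2, other scaling, no filter, limma 3.58.1 on log2(TPM + 1), entries with a symbol, and libraries or pairs left out; DESeq2 with the block and a pair left out, a background with a mean CPM of at least 1, and means of the other lists without the SLC7A2-line pair 2, were chosen after seeing the data.

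Whether replicate numbers pair the samples was checked by the correlation of replicate 2 minus replicate 1 between dox and no dox over all entries. It was 0.20 in the SLC7A1 line and 0.31 in the SLC7A2 line, above 0.1 in both, so the numbers were taken as pairs within a line; the labels do not state a shared culture.

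The members and lists were chosen with earlier results of these data known. Values in every library are given for members past the test, the 8 members with the largest mean pair difference among those with 4 differences of 1 sign and a mean CPM of at least 1, ATF4, DDIT3, PSAT1, PHGDH, ASNS, CHAC1, and the 2 with the widest range of differences. Of the other lists, called members are named, or else the 2 with the largest mean difference of 1 sign. PSPH, PCK2 and PPP1R15A were named after their values were seen.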

Additional observations from a re-analysis of the deposited data

Results flagged for a closer look

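PPP1R15A differed between the lines in direction. Both pairs of the SLC7A1 line were above 0 (0.08 and 0.17) and both pairs of the SLC7A2 line were below 0 (-0.08 and -0.18). The fitted dox effect of the SLC7A2 line minus that of the SLC7A1 line was -0.24 ± 0.69 (SE) and did not pass the edgeR quasi-likelihood test (adjusted p = 1), nor DESeq2 with the replicate block (-0.26 ± 0.15, adjusted p = 1). Groups of 2 libraries were too small to be checked for a single outlying library.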

How the results depend on the processing

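Members called across both lines numbered 0 in edgeR with or without the replicate block, with other scaling, without the filter, with limma on TPM, and without any 1 library. With the replicate block within a line in DESeq2 they numbered 6, and 0, 9, 0 or 3 when the SLC7A1-line pair 1, SLC7A1-line pair 2, SLC7A2-line pair 1 or SLC7A2-line pair 2 was left out. Entries called across both lines numbered 0, against 1 with DESeq2, 2 without the filter, 3 with the replicate block, 106 with the block in DESeq2, 1 with symbols only and 1 without both SLC7A2-line libraries numbered 2. With a pair left out in the order above they numbered 1, 3, 3 and 3 with the block in edgeR and 15, 171, 33 and 95 with the block in DESeq2. In the SLC7A1 line they numbered 0, against 9 with DESeq2, 2 without the filter, 2 with the block, 45 with the block in DESeq2, 2 with limma and 1 with symbols only. In the SLC7A2 line they numbered 0, against 10 with DESeq2, 1 with the block, 26 with the block in DESeq2 (1 member, PSAT1) and 2 with limma, and 0 to 1 with single libraries left out. For the difference between lines they numbered 0, against 20 with DESeq2, 21 with the block in DESeq2 and 3 with limma. The cause was not tested.

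Leaving out 1 library at a time moved the members' median from 0.083 to 0.36 across both lines, from -0.15 to 0.56 in the SLC7A1 line, from 0.12 to 0.38 in the SLC7A2 line and from -0.26 to 0.34 for the difference. The lowest value in the SLC7A1 line, and that across both lines, came without its dox library numbered 1. Fitted values of single genes also turned sign. CHAC1 ran from -0.15 to 0.68, DDIT3 from -0.23 to 0.64 and ATF3 from -0.39 to 0.56, each lowest without that library. ATF4 ran from -0.046 (without the SLC7A1-line no dox library numbered 2) to 0.27, and DDIT4 from -0.015 to 0.53. These fits had no replicate block, so the same-numbered partner of the library left out stayed in. The 4 pair differences of CHAC1, DDIT3 and ATF4 were all above 0. ATF3 was also -0.16 without both SLC7A2-line libraries numbered 2, and -0.18 with the block in edgeR and in DESeq2 without SLC7A2-line pair 2. The count of members with all 4 differences above 0 was 16 with a prior count of 0.5, library total scaling or TPM. Low counts limit the 5 members near 0.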
